A study of Mus musculus with 4 samples.

Results

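Circular RNAs of 4 genes of the non-sarcomeric cytoskeleton, Myh9, Actn4, Dst and Utrn, were followed across 4 libraries from differentiated C2C12 cells. The deposited lists carry no gene symbols, so each circle was assigned by its mm9 position and strand to a window around the gene. This gave 729 of the 69136 circles listed in the 4 libraries, of which 398 lay at Myh9, 162 at Actn4, 95 at Dst and 74 at Utrn. By kind, 14 of the 729 were exonic circles, closed between the ends of annotated exons, and 715 were intronic circles, which begin at the 5' splice site of an intron and end inside it. The windows followed the transcripts named in the files: 1 transcript name at Myh9 (ENSMUST00000016771) and 5 at each of the other loci.

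C2C12 is a cell line of mouse myoblasts, which form myotubes once growth serum is withdrawn. All 4 libraries came from cells kept 3 to 4 days in DMEM with 2% horse serum to differentiate. RPAD RNA (libraries RPAD 1 and RPAD 2) had been digested with RNase R for 30 min to remove linear RNA, after which remaining linear RNA was given poly(A) tails and depleted. Untreated total RNA (libraries total 1 and total 2) was the control. The protocol in the labels names HeLa RNA in the RNase R reaction although the labelled line is C2C12, and this was not resolved. Nothing in the labels ties the libraries within a group to separate cultures, so p-values measure only how far these libraries differ, and that spread may be technical.

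The RPAD libraries held 150478 and 191246 back-splice reads, reads across the junction that closes a circle, and the total RNA libraries 38850 and 35981. These totals are not sequencing depth, so levels below are reads per 10000 back-splice reads of a library. Linear RNA was not measured in these lists, so muscle transcripts could not be checked as such. Circles at the position of titin, the giant sarcomere protein, took 573 and 438 reads per 10000 in RPAD and 732 and 808 in total RNA. Reads carried no molecular identifiers to mark PCR copies, so intervals cover counting error only.

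The 4 genes encode proteins that shape cells outside the contractile apparatus. Myh9 encodes the heavy chain of non-muscle myosin IIA, the motor that pulls on actin filaments, and Actn4 encodes alpha-actinin-4, which cross-links those filaments. Dst encodes dystonin, a spectraplakin that ties actin, microtubules and intermediate filaments together. Utrn encodes utrophin, the paralog of dystrophin that links actin to the dystroglycan complex of the membrane and is concentrated at the neuromuscular junction of adult muscle. An exonic circle forms when a 5' splice site is joined to an upstream 3' splice site, while circular intronic RNAs can come from excised intron lariats. Whether the intronic circles listed here did so was not tested.

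Myh9 had the most circle reads of the 4 loci when the libraries were summed. It had 424 and 2331 reads in RPAD 1 and RPAD 2, and 204 and 175 in total RNA 1 and 2. Per 10000 back-splice reads these were 28.2 (exact 95% interval 25.6 to 31.0) and 122 (117 to 127) in RPAD, against 52.5 (45.6 to 60.2) and 48.6 (41.7 to 56.4) in total RNA. The RPAD libraries lay on either side of the total RNA pair. In bulk RNA, fewer cells making a circle and fewer circles per cell cannot be told apart. By intronic reads alone Myh9 ranked 45 of 1029 hosts in RPAD 1 and 1 of 1299 in RPAD 2, and 7 of 2958 and 4 of 2443 in total RNA 1 and 2.

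Actn4 had 548 and 286 reads in RPAD and 60 and 51 in total RNA. Its level was 36.4 (33.4 to 39.6) and 14.95 (13.3 to 16.8) per 10000 in RPAD, against 15.4 (11.8 to 19.9) and 14.2 (10.6 to 18.6) in total RNA. RPAD 1 stood above the other 3 libraries, which differed by less than their counting intervals.

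Dst had 23 and 123 reads in RPAD and 36 and 15 in total RNA, or 1.53 and 6.43 per 10000 in RPAD against 9.27 and 4.17 in total RNA. Utrn had 122 and 134 reads in RPAD and 14 and 57 in total RNA, or 8.11 and 7.01 per 10000 in RPAD against 3.60 and 15.8 in total RNA. At Dst each group held 1 lower and 1 higher library, so the groups overlapped, and at Utrn the RPAD values fell between those of the total RNA libraries.

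**Figure D1:**
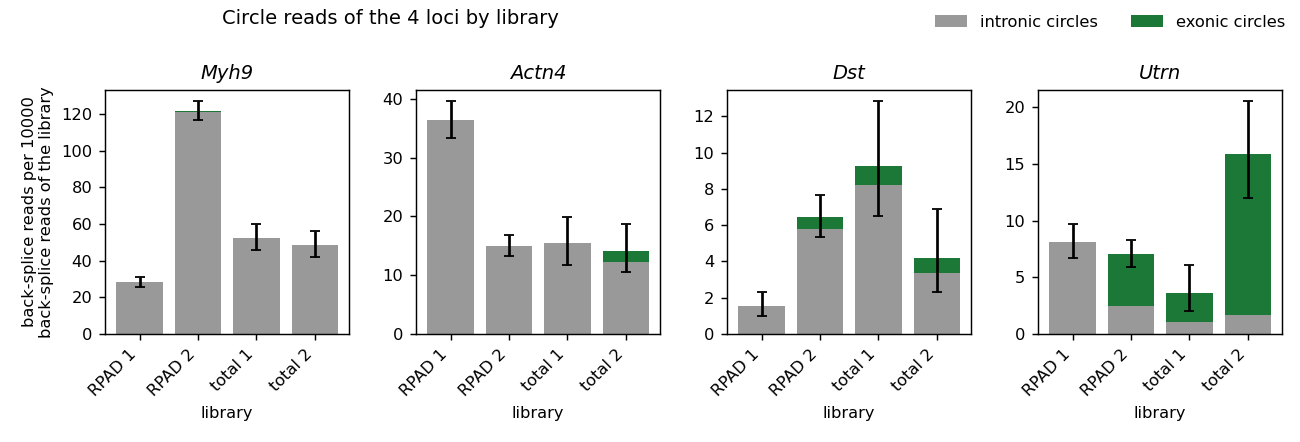
Bars give back-splice reads of each locus per 10000 back-splice reads of the library, split into intronic (grey) and exonic (green) circles, with exact 95% intervals of the sum as error bars and a separate vertical axis for each locus. Myh9 reached 122 in RPAD 2 and lay at 28.2 in RPAD 1, and green bars are absent from RPAD 1 at all 4 loci.

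No locus differed between RPAD and total RNA beyond the spread of the libraries. Hosts were tested with edgeR's quasi-likelihood test with TMM scaling, and a Benjamini-Hochberg adjusted p under 0.05 was needed to pass. Of the 4 loci 0 passed, where 0% of the 1424 hosts tested did, and 26.4% of hosts had an unadjusted p under 0.05 against 0 of the 4 loci. The log2 fold change of RPAD over total RNA was 0.41 (SE 0.99) for Myh9, with an adjusted p of 0.919 by edgeR. It was 0.48 (SE 1.35) for Actn4 with an adjusted p of 0.932, -0.90 (SE 1.92) for Dst with 0.912, and -0.65 (SE 1.79) for Utrn with 0.931, all by edgeR. The median over all 1424 hosts was -0.93 by TMM, -0.71 by DESeq2 and -0.87 when scaled by library totals, against which the locus values are to be read. The sign for Myh9 rested on RPAD 2: without that library its log2 fold change was -1.21, and without RPAD 1 it was 1.25. The medians over all hosts in those fits were -5.29 without RPAD 2 and -2.80 without RPAD 1. Actn4 stood at -0.0061 without RPAD 1, and Utrn at 0.85 without total RNA 2. DESeq2 called 7.23% of the hosts and 0 of the 4 loci, with an unadjusted p under 0.05 for 27.7% of the hosts and 0 of the loci. Without RPAD 1 edgeR called 32% of hosts and without RPAD 2 30.1%, and 0 of the 4 loci in either case.

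**Figure D2:**
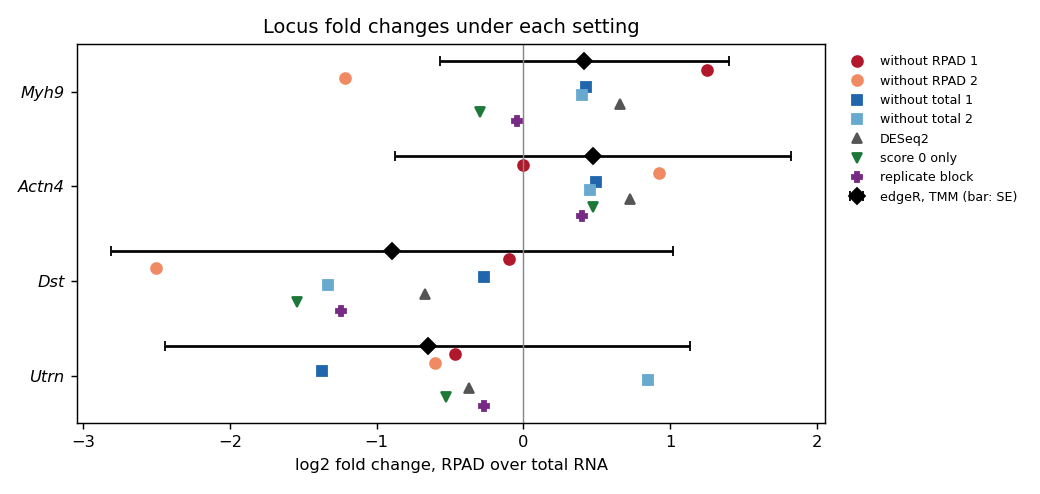
The horizontal axis gives the log2 fold change of RPAD over total RNA for each locus; black diamonds are the edgeR values with SE bars, and the other symbols give the same locus with 1 library left out, with DESeq2, with score 0 junctions or with the replicate block. The Myh9 symbols span -1.21 to 1.25, and every SE bar crosses 0.

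The kind of circle differed among the 4 loci. Intronic circles held 100% and 99.6% of Myh9 reads in RPAD and 100% in both total RNA libraries. At Actn4 they held 100% and 99.7% in RPAD, and 100% and 86.3% in total RNA. Over each whole library intronic circles held 62.8% and 52.0% of reads in RPAD and 58.4% and 57.2% in total RNA. A high share was common among hosts: of 737 hosts with at least 100 reads over the 4 libraries, 45.05% had at least 99% of reads on intronic circles, and the median was 97.8%. Summed over the libraries, Myh9 stood at 99.7%, Actn4 at 99.2%, Dst at 90.4% and Utrn at 54.7%. At the titin position the share was 12.8% and 11.1% in RPAD and 7.74% and 9.14% in total RNA.

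Utrn varied most between libraries in this respect. Its intronic share was 100% (exact 95% interval 97.0 to 100) and 35.1% (27.04 to 43.8) in RPAD 1 and 2, against 28.6% (8.39 to 58.1) and 10.5% (3.96 to 21.5) in total RNA 1 and 2. The means were 67.5% ± 45.9 in RPAD and 19.5% ± 12.8 in total RNA (SD, n = 2 each; two-sided exact permutation p = 0.333, the smallest that 2 against 2 libraries can give). The difference of 48.0 percentage points was 15.5 without RPAD 1 and 80.5 without RPAD 2. For Dst they were 95.1% ± 6.90 in RPAD and 84.4% ± 6.29 in total RNA (SD, n = 2 each; two-sided exact permutation p = 0.333). The difference of 10.7 points was 5.80 without RPAD 1, 15.6 without RPAD 2 and 44.1 over circles with at least 2 reads. Over junctions of score 0 it was 2.34 points (exact permutation p = 1). Of the Dst circles in total RNA 1 and 2, 28 of 31 and 11 of 13 had 1 read, so the 44.1 rests on few reads.

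The intronic circles of Myh9 came from 10 introns, and 3 of these gave circles in all 4 libraries. By mean reads per 10000 over the libraries, the leading intron was intron 13, chromosome 15 from 77615697 to 77616916 on the minus strand, 1220 nt long. It had 154 and 1373 reads in RPAD and 64 and 42 in total RNA, or 10.2 and 71.8 per 10000 in RPAD against 16.5 and 11.7 in total RNA. In RPAD 2 this was the intron with the second-highest read count of the 1672 introns listed. Its share of Myh9 intronic reads was 36.3% and 59.2% in RPAD and 31.4% and 24.0% in total RNA, and it was the first intron of the locus in RPAD 2 alone. In total RNA 2 intron 3 came first, with 62 reads (35.4%).

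Intron 25 followed, from 77602467 to 77603701, 1235 nt. It had 161 and 19 reads in RPAD and 75 and 29 in total RNA, so that it led the locus in RPAD 1 and total RNA 1 and was nearly absent from RPAD 2, with 0.993 per 10000. Intron 15, from 77611946 to 77613818, had 57 and 298 reads in RPAD and 8 and 36 in total RNA. Intron 15 and the other Myh9 introns below were picked after their values were seen, as were the introns of 1502 and 1760 nt of Utrn.

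Several introns of Myh9 were read in part of the libraries. Intron 5, from 77622777 to 77626390, gave 626 reads on 84 different circles in RPAD 2 and 0 reads in the other 3 libraries. Intron 3, from 77627459 to 77638297 and 10839 nt long, was at 0 in both RPAD libraries and had 26 and 62 reads in total RNA. With a floor of 3 reads over the RPAD group, RPAD was at least 134-fold lower. Intron 14, from 77613934 to 77615522, had 0 reads in RPAD and 11 and 4 in total RNA, so that RPAD was at least 22.8-fold lower. Such bounds cover the counting error of the 0 reads alone. Intron 20, from 77606365 to 77607320, had 52 and 0 reads in RPAD and 13 and 2 in total RNA.

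Actn4 rested on 1 intron. The 2513 nt intron on chromosome 7 from 29687047 to 29689559, minus strand, is intron 11 of ENSMUST00000068045 and intron 4 of shorter models. It had 548 and 262 reads in RPAD and 48 and 36 in total RNA. These were 100% and 91.9% of Actn4 intronic reads in RPAD and 80.0% and 81.8% in total RNA. The intron ahead of it, from 29689708 to 29690243 and 536 nt long, had 0 and 23 reads in RPAD and 10 and 0 in total RNA. Its circles reached 103 to 405 nt from the splice site, and the leading ones by mean reads per 10000 over the libraries, of 253 and 317 nt, had 2 reads each in total RNA 1, while circles of 362 and 375 nt had 5 reads each in RPAD 2.

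Dst gave few reads from many introns. Its intronic circles came from 19 introns, 8 listed in RPAD, 13 in total RNA and 2 in both groups (10.5%, against 13.2% of all 7859 introns of the series). The intron with the highest mean level, chromosome 1 from 34351392 to 34351998 on the plus strand (607 nt), had 0 and 44 reads in RPAD and 2 and 2 in total RNA. Its leading circle by mean level (503 nt) rested on 2 reads in total RNA 1. The next, from 34282850 to 34284619 (intron 56 of ENSMUST00000088216), had 0 reads in RPAD and 10 and 0 in total RNA, at most 2 of them on 1 circle (744 nt). The RPAD libraries shared 0 of the 8 Dst introns listed in either of them.

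Utrn introns also changed from library to library. Its leading intron, chromosome 10 from 12446179 to 12447530 on the minus strand (1352 nt, intron 15 of ENSMUST00000076817), had 25 and 41 reads in RPAD and 0 in both total RNA libraries, at least 4.82-fold higher in RPAD with the same floor for total RNA. Its leading circle, from 12447388 to 12447530 (143 nt), had 9 and 1 reads in RPAD and 0 in total RNA. The intron from 12458065 to 12459164 (1100 nt, intron 9) had 42 reads in RPAD 1 and 0 in RPAD 2 and in total RNA, of which 9 lay on a circle of 212 nt. In all, 7 of the 10 Utrn introns were listed in RPAD against 4 in total RNA. Of the 10, 1 was in both groups (10%, against 13.2% of all 7859 introns of the series). Over the series, 2693 introns were listed in RPAD and 6201 in total RNA.

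**Figure D3:**
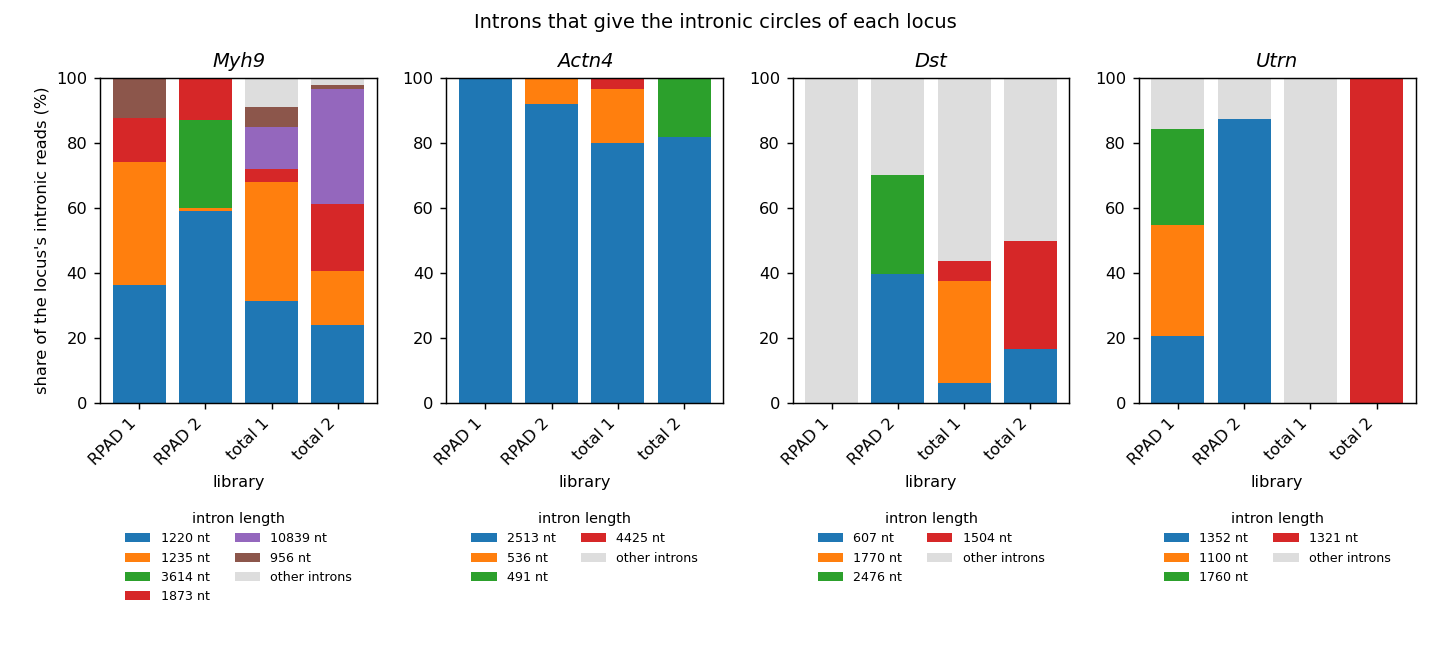
Stacked bars give, for each library, the percentage of a locus's intronic reads from each of its leading introns, named by length, with all other introns in light grey. The 2513 nt intron of Actn4 holds 80.0% to 100% in every library, while the makeup of Dst and Utrn differs between all 4.

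Summed per intron, the reads gave no call at these loci. With intronic circles summed per intron over the whole table, 13 introns and exonic circles of the 4 loci were tested among 1385, and 0 of them passed (0% of all). At an unadjusted p under 0.05 there were 3 of the 13, against 30.2% of all, and each of the 3 was at 0 in both RPAD libraries: Myh9 introns 3 and 14 and a 5-exon circle of Utrn. These 3 passed the low-count filter through the total RNA group alone, so their shared direction is no support. For Myh9 intron 13 the log2 fold change was 1.14 (SE 1.53), and its Benjamini-Hochberg adjusted p by edgeR was 0.848. It was -1.82 (SE 2.30) for Myh9 intron 25, with an edgeR adjusted p of 0.833. It was 0.61 (SE 1.72) for the leading Actn4 intron, with 0.942 by edgeR. For the leading Utrn intron it was 7.25 (SE 3.26), with an edgeR adjusted p of 0.223. That intron passed the low-count filter through the RPAD group alone, so its direction is no support either.

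Each circle began exactly at the 5' splice site of its intron, as all intronic circles of the series did. The other end was spread, nucleotide by nucleotide, over a band whose width differed between introns. Myh9 intron 13 had 57 different circles of 98 to 156 nt, 45 of them listed in at least 2 libraries and 10 in all 4. The leading circle, from 77616803 to 77616916 (114 nt), had 6 and 69 reads in RPAD and 3 and 1 in total RNA, a small part of the reads of its intron in every library. The median length by read in this intron was 124 and 123 nt in RPAD and 120.5 and 119.5 nt in total RNA.

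The other leading introns showed the same kind of spread. Myh9 intron 25 had 62 circles, of 66 to 198 nt, with medians by read of 121 and 121 nt in RPAD and 128 and 126 nt in total RNA. Its leading circle, from 77603581 to 77603701 (121 nt), had 15 and 3 reads in RPAD and 2 and 1 in total RNA. The Actn4 intron had 136 circles, with medians of 168 and 240 nt in RPAD and 177 and 187 nt in total RNA. Its leading circle, from 29689426 to 29689559 (134 nt), had 28 and 0 reads in RPAD and 4 and 0 in total RNA.

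Some introns had their circle ends farther from the 5' splice site. The 607 nt Dst intron gave circles of 498 to 554 nt, with medians of 518.5 nt in RPAD 2 and of 503 and 526 nt in total RNA 1 and 2, where 2 reads each gave ranges that did not overlap. A 1502 nt Utrn intron, from 12390047 to 12391548, had medians of 276 nt in RPAD 1 and 268 nt in total RNA 1, on 5 and 2 reads. The 84 circles of Myh9 intron 5 ran from 380 to 472 nt in RPAD 2, with a median of 414 nt. Of the 14 introns of these loci listed in at least 2 libraries, the ranges of length overlapped between all their libraries in 12, and the medians of an intron differed between libraries by 0.5 to 347 nt, with a middle value of 19.5 nt. The widest difference was at a Dst intron, from 34325736 to 34327672, with 1 read in each total RNA library. The Actn4 introns differed by 72 and 73.5 nt.

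Lengths at these loci differed from those of all hosts in opposite directions between libraries. Circles of 100 to 200 nt made up 86.5% of the listed intronic circles at the 4 loci in RPAD 1, against 72.7% over all hosts, and 50.7% in RPAD 2, against 72.9%. In total RNA 1 the share was 80.8% at the loci and 66.5% over all, and in total RNA 2 it was 79.0% and 63.0%. Pooled over the libraries, the shares were 69.2% at the loci and 69.4% over all hosts, and the median length 152 and 154 nt. In RPAD 2 alone the median was 195.5 nt at the loci and 146 nt over all, and in that library Myh9 intron 5 gave its circles of 380 to 472 nt. The circles covered a median of 9.43% of their intron at the loci and 13.96% over all. Counted per library, 0 of 985 at the loci ended within 50 nt of the 3' end of the intron. Such ends were rare over all hosts too, with 630 of 71985. As a description, 25.6% of the 715 intronic circles of these loci were listed in at least 2 libraries, against 8.81% of all intronic circles. The share was 36.9% for Actn4, 29.8% for Myh9, 4.48% for Utrn and 3.26% for Dst, for loci with 945, 3134, 327 and 197 reads over the libraries.

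**Figure D4:**
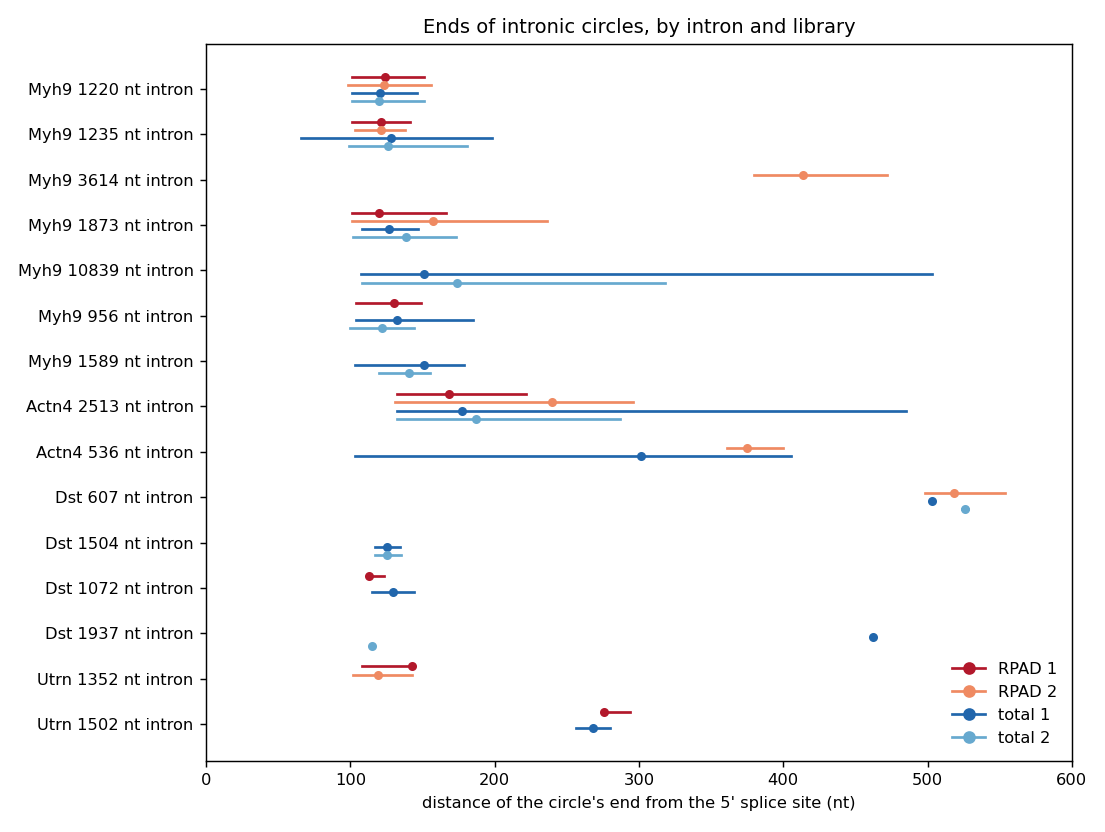
Each row is 1 intron, each coloured line the range of lengths of its intronic circles in 1 library and each dot the median by read, with the distance from the 5' splice site in nt on the horizontal axis. The dots of Myh9 intron 13 (1220 nt) lie between 119.5 and 124 nt in all 4 libraries, and those of the 607 nt Dst intron between 503 and 526 nt.

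Exonic circles were few. Utrn had 0 and 2 different ones in RPAD and 3 and 5 in total RNA (two-sided exact permutation p = 0.333, n = 2 each), Dst 0 and 1 in RPAD and 1 and 2 in total RNA, Actn4 0 and 1 in each group, and Myh9 0 and 2 in RPAD and 0 in total RNA. Over the whole series, intronic circles were 96.8% and 97.1% of the circles listed in RPAD 1 and 2. In total RNA 1 and 2 they were 89.0% and 88.9%, so exonic circles were a smaller share of the circles listed in RPAD for all hosts too. By reads the RPAD libraries lay on either side of total RNA, with intronic shares of 62.8% and 52.0% against 58.4% and 57.2%. RPAD 1 held 55971 exonic reads in all and 0 at the 4 loci. A floor of 3 reads there is 0.199 per 10000 of its 150478 back-splice reads. Spliced lengths of the 14 circles ran from 135 to 3394 nt with a median of 635 nt, against 510 nt for all 4074 exonic circles. The median intron upstream was 2567 nt and downstream 2264 nt, against 4381 and 3510 nt for all. Spliced length was a multiple of 3 in 7 of the 14 and in 40.9% of all.

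Utrn had 7 of the 14 exonic circles, and most of their reads. A 4-exon circle of 782 nt, chromosome 10 from 12429764 to 12434172 (exons 19 to 22 of ENSMUST00000076817), had 0 and 86 reads in RPAD and 0 and 14 in total RNA. It was thus read in 1 library of each group. It held 98.9% of the exonic Utrn reads in RPAD 2, against 0% and 27.5% in total RNA 1 and 2. The log2 fold change of RPAD over total RNA was 0.46 (SE 3.07), and the Benjamini-Hochberg adjusted p by edgeR 0.999. Without RPAD 2, the RPAD group was at 0 and the circle passed below total RNA (adjusted p by edgeR of 0.0333). A 5-exon circle of 725 nt, from 12156079 to 12175362 (exons 60 to 64), had 0 reads in both RPAD libraries and 8 and 20 in total RNA. RPAD was thus at least 42.6-fold lower. The 725 nt circle passed the low-count filter through the total RNA group alone, so its direction is no support. Its adjusted p by edgeR was 0.179 (0.0192 to 1.00 over its alternatives). It passed the threshold when RPAD 1 or RPAD 2 was left out (adjusted p by edgeR of 0.0490 and 0.0192). Such fits leave 1 RPAD library, whose spread is taken from the total RNA pair, and 19.9% and 23.2% of all circles passed.

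Of the 7 Utrn circles, those of exons 60 to 64 and 60 to 63 shared a splice site at their junctions. So did the 22-exon circle and the single-exon circle of 150 nt. The 782 nt circle, that of exon 1 and the 7-exon circle of 895 nt shared no junction site with another. The 4-exon circle of exons 60 to 63, from 12159425 to 12175362 (613 nt), starts at the same splice site as that of exons 60 to 64. It had 0 reads in RPAD and 1 and 10 in total RNA. A 7-exon circle of 895 nt, from 12175161 to 12206452, ends with exon 60, the 202 nt exon where those circles start, and had 1 read in total RNA 1. A 22-exon circle, from 12406130 to 12465145 (exons 7 to 28, 3394 nt), and a single-exon circle of 150 nt, from 12406130 to 12406279, end at the same splice site and had 1 read each. That of 22 exons was read in total RNA 2 and the single exon in RPAD 2. The 1760 nt intron just downstream of that site, from 12404370 to 12406129, gave 36 intronic reads in RPAD 1. A circle of exon 1 alone, from 12581366 to 12581533 (168 nt), had 0 reads in RPAD and 0 and 6 in total RNA, and the intron after it is 96235 nt long. The list gives no intron before it.

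Dst circles also used alternative partners. Exons 55 to 57 of ENSMUST00000088216, from 34280649 to 34286091 (2168 nt), had 0 and 12 reads in RPAD and 0 and 2 in total RNA. For this circle edgeR gave a log2 fold change of 0.38 (SE 3.30) and a Benjamini-Hochberg adjusted p of 0.999. Exons 55 to 58, from 34280649 to 34299625 (2330 nt), had 0 reads in RPAD and 4 and 0 in total RNA. Both circles enclose intron 56, the intron that gave intronic circles in total RNA 1. The remaining Dst circle, exons 75 to 78 of ENSMUST00000097786 (from 34332518 to 34341263, 657 nt), had 1 read in total RNA 2.

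Myh9 and Actn4 had 2 exonic circles each, every one in a single library. At Myh9, exons 7 to 11, from 77619349 to 77622209 (522 nt), had 8 reads and exon 14 alone, from 77615523 to 77615696 (174 nt), had 2, all in RPAD 2. Exon 14 lies between introns 13 and 14, both sources of intronic circles. At Actn4, a circle of exons 2 to 6, from 29698397 to 29704087 (489 nt), had 7 reads in total RNA 2, and a single exon of 135 nt, from 29682868 to 29683002, had 1 read in RPAD 2.

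**Figure D5:**
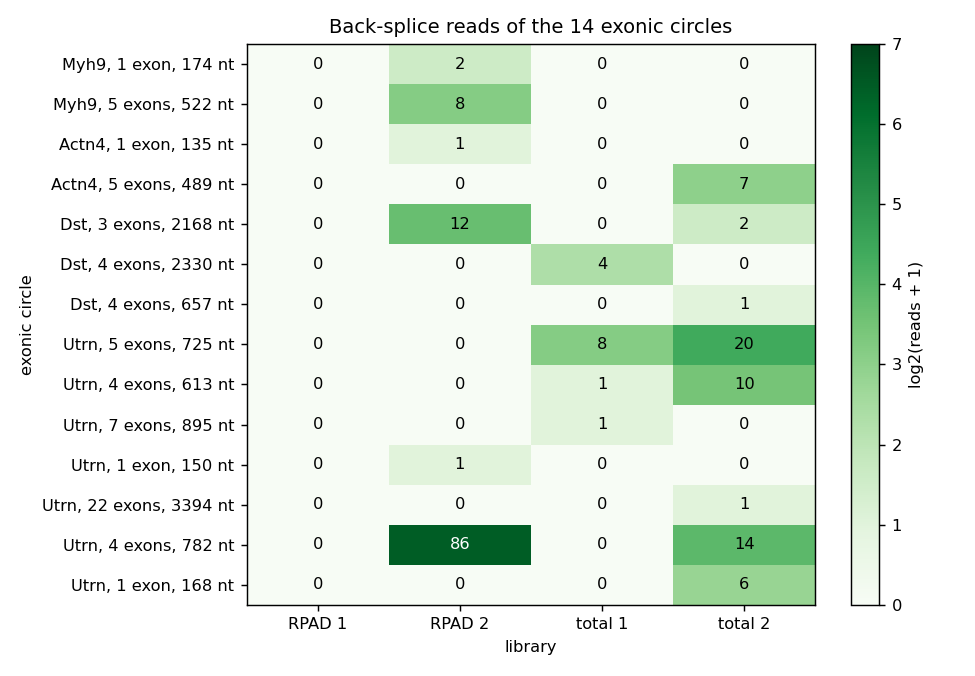
Rows are the 14 exonic circles of the 4 loci, named by exon number and spliced length, columns are the libraries, numbers are back-splice reads and the shade is log2(reads + 1). RPAD 1 is 0 throughout, and the 782 nt circle of Utrn reaches 86 in RPAD 2.

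Of the 729 circles, 29 passed the low-count filter and were tested one by one: 20 at Myh9, 6 at Actn4, 1 at Dst and 2 at Utrn. With edgeR 0 of the 29 passed, where 0% of the 924 circles tested did, and 1 had an unadjusted p under 0.05, against 17.5% of all. That circle was the 725 nt circle of Utrn, which had 0 reads in both RPAD libraries. DESeq2 gave the same counts for the 29 and an unadjusted share of 17.7% over all. The median log2 fold change of the 29 was 0.38, against -0.15 over the 924. Every one of the 29 was read in at least 2 libraries, and 26 of them are intronic circles with neighbouring ends in 3 introns, so they are not independent.

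The libraries of a group shared a minority of the introns of these loci, as of all introns. The RPAD libraries together listed 23 introns and shared 5 (21.7%, against 10.5% of the 2693 introns of the series listed in RPAD), which held 84.6% of the intronic reads of the loci in RPAD 1 and 72.1% in RPAD 2. In total RNA 10 of 29 introns were in both libraries (34.5%, against 17.7% of 6201), with 83.3% and 92.0% of the reads. Shared introns of the whole series held 37.8% and 26.5% of intronic reads in RPAD 1 and 2, and 45.3% and 53.0% in total RNA. By locus, the RPAD shares were 87.7% and 72.8% at Myh9, and 100% and 91.9% at Actn4. They were 0% in both RPAD libraries at Dst, and 20.5% and 87.2% at Utrn.

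Hosts with a like profile were sought over the 4 libraries by Euclidean distance in log2 (reads per 10000 + 1). For Myh9 the closest of 1420 other hosts was ENSMUST00000127569, chromosome 9 from 66387559 to 66414710, with 532 and 1611 reads in RPAD and 137 and 278 in total RNA (distance 1.06). For Actn4 it was ENSMUST00000036646, chromosome 5 from 96511515 to 96563151, with 773 and 297 reads in RPAD and 35 and 39 in total RNA (distance 0.938).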

How the data were processed

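The genome build is mm9 and the named tools are TopHat, cutadapt and Cufflinks 2.2.1, per the submitters' processing notes. Which program called the circles is not stated in the labels or file headers. Each deposited list holds raw counts of back-splice reads per circle for 1 library, per the file headers. The authors' deposited score from 0 to 3 has no stated meaning and served only in 1 alternative. Positions are mm9, counted from 1. The files count circles by annotated strand, and whether libraries kept strand is not stated.

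Circles of the 4 loci were those wholly inside windows set by position. A circle absent from a list was given 0 reads. Transcripts sharing a junction or intron were linked into 6529 hosts, with each locus as 1 host. Counts were tested with edgeR 4.0.16 in R 4.3.3 (quasi-likelihood, TMM, filterByExpr with a minimum count of 5 and total of 10, group only, Benjamini-Hochberg); SE is the absolute log2 fold change divided by the root of F. The code of the fits was also run on simulated counts. Their spread was set by hand and not matched to these libraries, so that run does not measure how the fits perform here. DESeq2 1.42.0 was an alternative. Intervals are exact Clopper-Pearson at 95%. Tables and plots were made in Python 3.11.15 with scipy 1.17.1, pandas 2.3.3, numpy 2.4.6 and matplotlib 3.10.9.

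The members, gene lists and tests were chosen with earlier results of these data known. Named items were, at each locus, the 5 exonic circles of highest mean level, those read in all libraries or with at least 5 reads in both libraries of a group, the 2 leading introns with their leading circle, and the closest host in profile. A list of further cytoskeleton genes and a list of fibroblast genes were not analysed here for want of mm9 gene positions.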

Additional observations from a re-analysis of the deposited data

Results flagged for a closer look

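On the strand opposite to Utrn, inside the same window, RPAD 2 listed 2 reads on 2 intronic circles, where RPAD 1 and both total RNA libraries had 0. They were left out of the Utrn counts.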

How the results depend on the processing

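In fits of all 4 libraries, neither edgeR nor DESeq2 called a locus or 1 of its circles under any setting run. Calls of single circles ranged from 0 to 2 with 1 library left out (1 without RPAD 1 and 2 without RPAD 2, Utrn exonic circles, where 19.9% and 23.2% of all circles tested passed), and locus calls stayed at 0. The replicate block gave 0 calls of both kinds (0% of all circles and 0.14% of all hosts) and a Myh9 log2 fold change of -0.046 (0.40 for Actn4, -1.24 for Dst and -0.27 for Utrn); junctions of score 0 gave -0.30 for Myh9. The cause of these reversals was not tested. Deviations of same-numbered libraries correlated at 0.0411 over circles and 0.0126 over hosts, so the numbers are not taken as pairs. Leaving out 1 library, log2 fold changes ranged from -1.21 to 1.25 for Myh9, -0.0061 to 0.93 for Actn4, -2.51 to -0.10 for Dst and -1.37 to 0.85 for Utrn. The difference in intronic share at Actn4 (6.69 points, RPAD minus total RNA) ranged from -0.17 to 13.6 points. No value was had for the leading exonic circle of Myh9, which total RNA lacks. The total RNA libraries held few back-splice reads, which limits what a count of 0 shows: 3 reads are 0.772 and 0.834 per 10000 there.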
